A study of Mus musculus with 12 samples.

Results

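Glul, Slc1a2, Slc1a4, Rhbg, Cyp2e1, Cyp1a2, Rgn, Lect2, Lgr5 and Axin2 are 10 genes of pericentral hepatocytes, the liver cells around the central vein, or of the WNT pathway that maintains them. They were taken by gene symbol from the 22180 genes measured in livers of Ppara KO and WT mice, and all 10 were found. For a gene with several transcript clusters (the probe sets of this array), the brightest one over the 12 arrays was used. The Ppara KO group held 6 female C57Bl/6 mice with a knockout of Ppara, and the WT group held 6 female C57Bl/6 mice with no such change. All mice were adults of 12 to 14 weeks, no treatment is named for either group, and each liver gave 1 Affymetrix MoGene 2.0 ST array. The labels name no allele, litter, feeding state or time of day of collection, and they number each sample as a mouse of its own.

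The liver lobule is zoned. Endothelial cells of the central vein release WNT ligands and R-spondins, and the neighbouring hepatocytes respond through β-catenin and TCF/LEF transcription factors with genes for glutamine synthesis, ammonium capture and xenobiotic oxidation. Hepatocytes near the portal vein carry urea synthesis and gluconeogenesis instead. Ppara encodes PPARα, a nuclear receptor for fatty acids that drives fatty acid oxidation genes in hepatocytes.

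Livers of Ppara KO mice had more mRNA of 4 of the 10 genes, Slc1a2, Lect2, Cyp1a2 and Cyp2e1, and less of 2, Slc1a4 and Lgr5. The largest of these differences were those of the amino acid transporter genes: Slc1a2 was 1.70-fold higher and Slc1a4 was 1.67-fold lower, while Cyp2e1, Cyp1a2 and Lect2 were 1.18-fold to 1.22-fold higher and Lgr5 fell by 0.58 on the log2 scale. Glul, Rhbg, Rgn and Axin2 did not pass the test. A gene was called when the p-value of limma, adjusted by the Benjamini-Hochberg method over all 22180 genes, was under 0.05. Of all genes 10.2% were called, 4.46% higher and 5.77% lower in Ppara KO, against 60% of the 10 members, 40% higher and 20% lower. In 5 of the 10 members (50%) the 6 Ppara KO values lay all above or all below the 6 WT values, as they did in 6.51% of all genes. All 10 members had a mean level at or above the median of all genes, while the shares of all genes include the dimmer ones. A fit of the genes at or above the median level alone, about 50% of the genes, called 2802, more than the 2268 of the whole set. It called 7 members. The share called among these brighter genes was therefore well above 10.2%. The median difference of the 10 was 0.13 on the log2 scale, against 0.009 for all genes. In these bulk samples fewer cells of a type and less RNA per cell cannot be told apart. A list of 8 hepatocyte markers, 7 of them measured, had 0 calls by limma and 1 gene with an unadjusted p under 0.05.

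**Figure D1:**
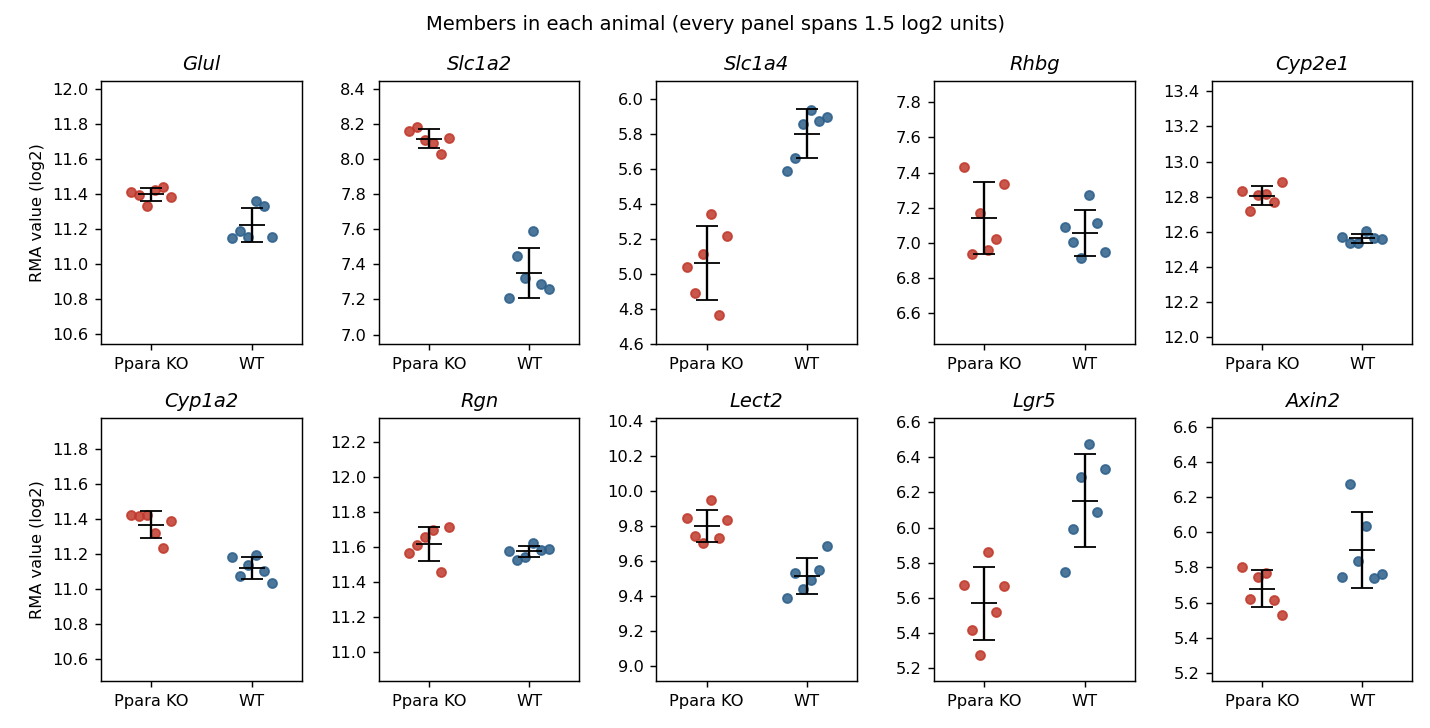
Each panel shows 1 gene on the RMA scale (log2), with 1 point per animal, Ppara KO on the left and WT on the right, and bars for the mean and SD of 6 animals. Slc1a2, Cyp2e1, Cyp1a2 and Lect2 lie higher in all 6 Ppara KO animals and Slc1a4 lies lower, while the values of the other 5 genes overlap.

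The targeted gene did not separate the genotypes on these arrays. Ppara, measured by 1 transcript cluster, had a log2 value of 8.01 ± 0.13 in Ppara KO and 7.98 ± 0.16 in WT (mean ± SD, n = 6 each; limma adjusted p = 0.882). The position of its probes relative to the disrupted sequence is not known here, and the value therefore checks no genotype label. Many genes outside the 10 differed as well, and the first principal component of all genes, with 31.7% of the variance, had all Ppara KO animals on one side and all WT animals on the other.

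The upstream sequences of the members are shown because β-catenin acts on its target genes through TCF/LEF factors, which bind the letters CTTTGAT or CTTTGAA. The RefSeq promoter table of build GRCm38.p6 held 7 of the 10 genes, and the 250 bases before the transcription start were read on both strands. These letters occurred in 4 of the 7 windows, those of Slc1a2, Cyp2e1, Cyp1a2 and Lect2, and in 7.48% of all 32851 windows of the table. The 4 windows are those of the 4 genes called higher. The windows of Slc1a4, Glul and Axin2 held no such match. No window was available for Rgn, Rhbg and Lgr5, so of the genes called lower only Slc1a4 was read. The letters were chosen from textbook knowledge after the calls were known, and a match in a short window is a description of the sequence and not a bound site. Each sequence runs 5′ to 3′ on the strand of its gene and ends at the base before the start, with the matched letters in capitals.
Slc1a2 (chr2:102706188-102706437, plus strand), with the match on the opposite strand 207 to 201 bases before the start, has this window.
Slc1a2: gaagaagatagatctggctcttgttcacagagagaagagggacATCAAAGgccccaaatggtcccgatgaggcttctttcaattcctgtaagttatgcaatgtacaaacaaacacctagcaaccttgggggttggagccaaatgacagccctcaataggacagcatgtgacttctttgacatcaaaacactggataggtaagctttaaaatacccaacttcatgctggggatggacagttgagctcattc
Cyp2e1 (chr7:140763569-140763818, plus strand) has its match on the strand of the gene, 135 to 129 bases before the start.
Cyp2e1: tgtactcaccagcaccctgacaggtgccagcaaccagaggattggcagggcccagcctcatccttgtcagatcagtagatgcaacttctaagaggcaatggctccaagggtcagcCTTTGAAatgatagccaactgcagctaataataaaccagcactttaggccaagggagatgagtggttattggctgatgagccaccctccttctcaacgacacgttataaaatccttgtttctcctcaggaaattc
Cyp1a2 (chr9:57683656-57683905, minus strand) has it on the opposite strand, 244 to 238 bases before the start.
Cyp1a2: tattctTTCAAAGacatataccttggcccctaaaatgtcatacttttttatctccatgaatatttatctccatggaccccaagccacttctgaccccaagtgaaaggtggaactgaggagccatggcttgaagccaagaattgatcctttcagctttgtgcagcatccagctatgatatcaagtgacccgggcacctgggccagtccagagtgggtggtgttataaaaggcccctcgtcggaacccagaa
Lect2 (chr13:56548539-56548788, minus strand) has it on the opposite strand, 32 to 26 bases before the start.
Lect2: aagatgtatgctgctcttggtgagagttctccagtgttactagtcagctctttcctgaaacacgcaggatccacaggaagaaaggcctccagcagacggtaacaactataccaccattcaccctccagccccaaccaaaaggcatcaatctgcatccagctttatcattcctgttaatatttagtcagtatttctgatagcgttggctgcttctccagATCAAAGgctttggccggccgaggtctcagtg
Slc1a4 (chr11:20332714-20332963, minus strand), the only gene called lower that has a window, is shown for comparison and has no capitals.
Slc1a4: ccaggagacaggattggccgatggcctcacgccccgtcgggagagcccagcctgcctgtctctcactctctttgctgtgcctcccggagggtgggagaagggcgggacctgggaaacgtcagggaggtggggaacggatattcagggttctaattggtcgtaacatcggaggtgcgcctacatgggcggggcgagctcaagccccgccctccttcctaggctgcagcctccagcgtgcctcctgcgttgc

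Other short motifs were read in the same windows. The direct repeat of AGGNCA with 1 base between the copies, the layout of the element that PPARα binds with its partner RXR, occurred in 0 of the 7 windows and in 0.338% of all windows. The E-box CACGTG, which the circadian activators CLOCK and BMAL1 bind, occurred in 0 of the 7 and in 6.02% of all. The core GCGTG of the element that the aryl hydrocarbon receptor binds occurred in 2 of the 7, Slc1a4 and Lect2, and in 28.2% of all; Cyp1a2, a classical target of that receptor, had none in this window. These searches covered 250 bases on both strands and say nothing of elements farther away. The GC content of the windows ran lower in the 4 genes with TCF/LEF letters, from 44.8% in Slc1a2 to 48.8% in Cyp2e1, and was 64.8% in Slc1a4, 64.8% in Glul and 69.2% in Axin2.

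The first role is the handling of glutamine, glutamate and ammonium. Slc1a2 encodes GLT-1, the high-affinity glutamate transporter that pericentral hepatocytes share with astrocytes. Its lowest, median and highest log2 values were 8.03, 8.11 and 8.18 in Ppara KO, against 7.21, 7.30 and 7.59 in WT. The groups lay 0.44 apart at their nearest animals, and the 6 Ppara KO animals spanned 0.16 while the 6 WT animals spanned 0.39. The log2 difference was 0.76 ± 0.072 (limma, ± SE; adjusted p = 7.10e-06), and it was positive and past the threshold in each of the 26 alternative fits, from 0.68 to 0.81.

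Slc1a4 encodes ASCT1, a carrier of alanine, serine and other neutral amino acids of the same gene family as Slc1a2. Its lowest, median and highest values were 4.77, 5.08 and 5.34 in Ppara KO, against 5.59, 5.86 and 5.93 in WT. All Ppara KO animals were lower than all WT animals, with 0.25 between the nearest. The difference was -0.74 ± 0.099 (limma, ± SE; adjusted p = 2.06e-04), and ran from -0.84 to -0.68 over 26 alternatives, each past the threshold. These 2 members of one transporter family were called in opposite directions.

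Glul encodes glutamine synthetase, which joins ammonium to glutamate in the innermost cells around the central vein. Its values were 11.33, 11.40 and 11.44 in Ppara KO (lowest, median, highest), against 11.15, 11.17 and 11.36 in WT. Of the Ppara KO animals 5 exceeded the highest WT animal and 1 did not. The difference of 0.17 ± 0.061 was not called (limma adjusted p = 0.0905; 95% interval 0.04 to 0.30). Under 2 other settings it moved past the threshold at the same size, a variance prior that follows intensity (adjusted p = 0.0194) and a test restricted to genes at or above the median level (adjusted p = 0.0293). A second, dimmer transcript cluster of Glul had a difference of 0.28 ± 0.12 (adjusted p = 0.215 over all clusters).

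Rhbg encodes a membrane channel for ammonium that is found in the same pericentral cells. Its values were 6.94, 7.10 and 7.43 in Ppara KO and 6.91, 7.05 and 7.27 in WT (lowest, median, highest), and 2 Ppara KO animals stood above the WT range. The difference was 0.085 ± 0.096 (limma adjusted p = 0.670; 95% interval -0.12 to 0.29). The interval excludes a change of the size seen for Slc1a2 in either direction.

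Of 23 other measured genes of glutamine, glutamate and ammonium handling, 5 rose, 0 fell and 18 were not called, and the median difference was 0.039. That is a share of 21.7% called, against 10.2% of all genes. The mean level of the list was 7.59 in Ppara KO and 7.50 in WT, against an all-gene median of 4.57. The 10.2% includes dimmer genes and is no matched background. With 1 animal left out in turn, 5 to 6 of them were called. Ppat, which uses glutamine in the first step of purine synthesis, was 2.00-fold higher, at 7.37 ± 0.26 in Ppara KO against 6.37 ± 0.21 in WT (mean ± SD, n = 6 each). Oat, the ornithine aminotransferase that lies in the same pericentral rows as glutamine synthetase, was 1.63-fold higher, at 11.25 ± 0.18 in Ppara KO against 10.54 ± 0.18 in WT. The amino acid carriers Slc38a2 (0.41 ± 0.075, log2 difference ± SE) and Slc38a4 (0.26 ± 0.065) and the alanine aminotransferase Gpt2 (0.33 ± 0.076) rose too. By limma the adjusted p was smallest for Ppat (9.54e-05) and largest for Slc38a4 (0.0176). Slc38a3, the glutamine carrier SN1, was not called (0.14 ± 0.071).

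The second role is oxidation by cytochromes P450. Cyp2e1, which oxidises ethanol, acetone and small solvents, had log2 values of 12.72, 12.81 and 12.88 in Ppara KO (lowest, median, highest), against 12.54, 12.56 and 12.60 in WT. No animals overlapped, and the WT animals lay within 0.069 of each other. The difference was 0.24 ± 0.055, a 1.18-fold rise (limma adjusted p = 0.00967).

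Cyp1a2, the main hepatic enzyme for caffeine and aromatic amines, had values of 11.23, 11.40 and 11.42 in Ppara KO, against 11.03, 11.12 and 11.19 in WT (lowest, median, highest). The groups did not overlap, but their nearest animals were only 0.038 apart. The difference was 0.25 ± 0.061, a 1.19-fold rise (limma adjusted p = 0.0164). Among 8 measured genes of the aryl hydrocarbon receptor pathway, which induces Cyp1a2, limma called 0, and 2 had an unadjusted p under 0.05. Their median difference was -0.082, and only 2 of the 8 had a positive difference. Cyp1a1, the textbook target of that receptor, was not called (0.25 ± 0.096, adjusted p = 0.123). Its values, 3.24 to 3.79 in Ppara KO and 3.15 to 3.34 in WT, lay below the array medians of 4.13 to 4.17. At so low a level the missing call says little.

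Rgn and Lect2 stand for other products of hepatocytes. Lect2 encodes a secreted chemotactic protein and is a textbook β-catenin target of the liver. Its values were 9.70, 9.79 and 9.95 in Ppara KO, against 9.39, 9.51 and 9.69 in WT (lowest, median, highest), and the lowest Ppara KO animal stood 0.015 above the highest WT animal. The difference was 0.29 ± 0.069, a 1.22-fold rise (limma adjusted p = 0.0146).

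Rgn encodes regucalcin, the gluconolactonase of ascorbate synthesis, a pathway that mice retain. Its values were 11.46, 11.63 and 11.71 in Ppara KO and 11.53, 11.58 and 11.62 in WT (lowest, median, highest). The Ppara KO animals reached beyond the WT range at both ends, with 3 above it and 1 below. The difference of 0.043 ± 0.061 was not called (limma adjusted p = 0.75; 95% interval -0.087 to 0.17). Of the 8 genes of ascorbate synthesis and transport, Rgn included, 3 rose and 0 fell: Ugp2 by 0.55 (SE 0.081), Ugdh by 0.40 (SE 0.076) and Akr1a1 by 0.25 (SE 0.066), enzymes of the steps around UDP-glucose, UDP-glucuronate and glucuronate. Called genes made up 37.5% of this short list, against 10.2% of all genes. Its mean level, 9.40 in Ppara KO and 9.26 in WT, was far above the all-gene median of 4.57, so the 10.2% is no matched background. The call of Akr1a1 (adjusted p = 0.0277) ended on leaving out any 1 of 6 animals, WT 2, 3 and 6 and Ppara KO 2, 3 and 6, with differences of 0.22 to 0.27 over the 12 fits that leave out 1 animal. Gulo, the last enzyme of the pathway, was not called (0.11 ± 0.064).

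The third role is the WNT pathway itself. Lgr5 encodes a receptor for R-spondins that strengthens WNT signalling and in the liver marks pericentral hepatocytes. Its values were 5.28, 5.59 and 5.86 in Ppara KO, against 5.74, 6.19 and 6.48 in WT (lowest, median, highest). Of the Ppara KO animals 5 lay below the lowest WT animal, animal 1 at 5.74, and 1, animal 4 at 5.86, lay above it. The difference was -0.58 ± 0.12 (limma adjusted p = 0.00686). It rests on 1 of 2 transcript clusters. The other, at 3.94 ± 0.25 in Ppara KO and 4.00 ± 0.18 in WT (mean ± SD, n = 6 each), had a difference of -0.061 ± 0.12 (limma adjusted p = 0.863 over all clusters). Both of its means lay below the array medians of 4.13 to 4.17, a level at which a missing call says little. The mean of both clusters fell by 0.32 (limma adjusted p = 0.0257).

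Axin2 encodes a scaffold of the β-catenin destruction complex and is itself switched on by β-catenin as negative feedback. Its values were 5.53, 5.68 and 5.80 in Ppara KO, against 5.74, 5.80 and 6.28 in WT (lowest, median, highest). Of the Ppara KO animals 3 lay below the lowest WT animal and 3 lay within the WT range, and WT animals 2 and 4, at 6.28 and 6.04, stood above all others. The difference of -0.22 ± 0.095 was not called (limma adjusted p = 0.176; 95% interval -0.42 to -0.017), and was -0.14 without WT animal 2. Its second, dimmer cluster had a difference of 0.015 ± 0.081.

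**Figure D2:**
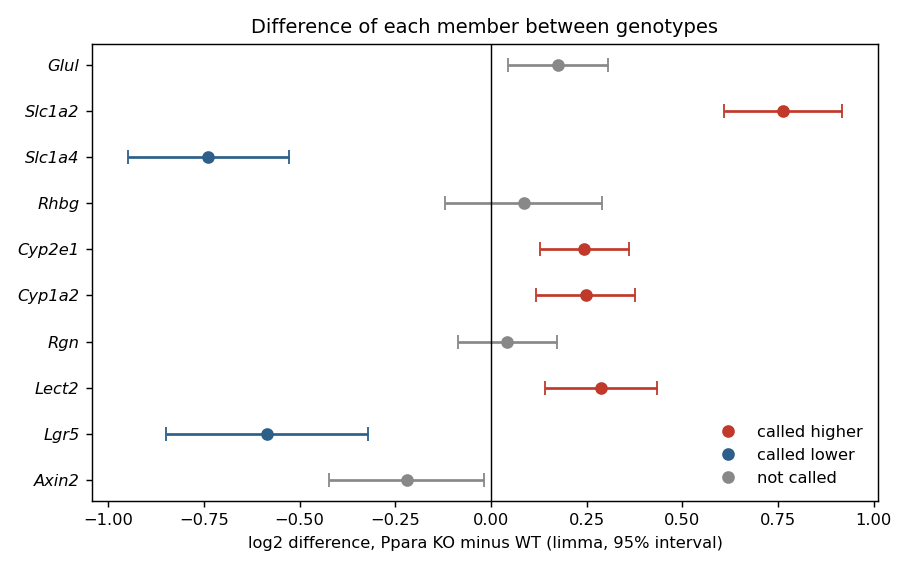
Points give the log2 difference, Ppara KO minus WT, and bars the 95% interval of limma, for each member, coloured by the call. The interval of Slc1a2 runs from 0.61 to 0.92 and that of Slc1a4 from -0.95 to -0.53, while those of Rhbg and Rgn cross 0.

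Of 19 other measured targets and feedback genes of WNT signalling, 1 rose, 1 fell and 17 were not called, with a median difference of 0.018. The share called was 10.5%, against 10.2% of all genes. By limma 10 of the 19 had an unadjusted p under 0.05, a count for which no share of all genes was taken. Rnf43, a ubiquitin ligase that removes WNT receptors, was 1.28-fold higher, at 7.15 ± 0.14 in Ppara KO against 6.79 ± 0.12 in WT (mean ± SD, n = 6 each; limma adjusted p = 0.00935). Znrf3, its partner with the same function, had a difference of 0.14 ± 0.083, and Nkd1, a feedback inhibitor, of 0.11 ± 0.11, both without a call. Sox9, also a marker of bile duct cells, fell by 0.39 (SE 0.11, limma adjusted p = 0.0392), a call that ended on leaving out any 1 of 8 animals, WT 1, 2, 4, 5 and 6 and Ppara KO 2, 4 and 6, with differences from -0.46 to -0.31. Tbx3, a pericentral transcription factor, was not called (-0.30 ± 0.12), and passed the threshold without WT animal 5 (-0.40, adjusted p = 0.0155). Ccnd1, the cyclin D1 gene, was not called (-0.33 ± 0.17), and neither was Notum.

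On the side of ligands and receptors, 1 of 28 measured genes rose and 2 fell, and the median difference was 0.0015. Their share called, 10.7%, was also near that of all genes. By limma 8 of the 28 had an unadjusted p under 0.05, again with no share of all genes taken. Lrp5, a co-receptor for WNT ligands, was 1.54-fold lower without overlap, at 7.97 ± 0.23 in Ppara KO against 8.60 ± 0.065 in WT (mean ± SD, n = 6 each; limma adjusted p = 6.49e-04). The frizzled receptor genes Fzd6 (-0.33 ± 0.094) and Fzd4 (0.34 ± 0.099) were called in opposite directions. The call of Fzd6 (adjusted p = 0.0380) held in 2 of the 12 fits that leave out 1 animal, those without WT 4 or Ppara KO 4, and that of Fzd4 (adjusted p = 0.0397) in 3, those without WT 2, WT 5 or Ppara KO 5. The ligands that central vein endothelium is known for, named here after their values were seen, were not called: Wnt2 had a difference of 0.14 ± 0.096, Wnt9b of 0.042 ± 0.13 and the R-spondin gene Rspo3 of -0.17 ± 0.083. Wnt2 (4.58 to 5.17 over all animals) and Wnt9b (4.35 to 5.09) were dim, near the all-gene median level of 4.57. Their missing calls therefore say little, and Rspo3 was brighter (6.07 to 6.61).

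The core of the pathway had 1 rise and 1 fall among 23 measured genes, with a median difference of -0.016, and 0 to 4 called with 1 animal left out. With all arrays 8.70% of these genes were called, against 10.2% of all genes. By limma 5 of the 23 had an unadjusted p under 0.05. Ctnnb1, the β-catenin gene itself, stood at 8.89 ± 0.089 in Ppara KO and 8.90 ± 0.071 in WT (mean ± SD, n = 6 each), a difference of -0.017 with a 95% interval of -0.15 to 0.12. Bcl9l, a co-activator of β-catenin, fell by 0.33 (SE 0.088, limma adjusted p = 0.0265), and Dvl2, which relays the receptor signal, rose by 0.24 (SE 0.066, limma adjusted p = 0.0319). The call of Bcl9l ended without WT 2 (-0.31, adjusted p = 0.059) or Ppara KO 6 (-0.31, adjusted p = 0.0588), and that of Dvl2 ended on leaving out any 1 of 5 animals, WT 1, 5 and 6 and Ppara KO 1 and 6, with differences of 0.20 to 0.26.

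Beyond the 10 members, 38 further pericentral genes were listed and 35 were measured. Of these 10 rose, 3 fell and 22 were not called, with a median difference of 0.12, close to that of the members. The share called was 37.1%, against 10.2% of all genes. The mean level of the list was 9.27 in Ppara KO and 9.14 in WT, against an all-gene median of 4.57. The 10.2% is therefore no matched background. Leaving out 1 animal in turn gave 7 to 10 rises and 3 to 5 falls. Besides Oat, the rises included Nr1i3, the receptor CAR that controls xenobiotic enzymes, 1.68-fold higher at 10.29 ± 0.13 in Ppara KO against 9.54 ± 0.077 in WT (mean ± SD, n = 6 each; limma adjusted p = 8.11e-06). Cyp2a5, a coumarin hydroxylase, was 2.69-fold higher, at 6.47 ± 0.51 in Ppara KO against 5.05 ± 0.42 in WT, and Csad, an enzyme of taurine synthesis, 1.97-fold higher, at 9.63 ± 0.38 in Ppara KO against 8.65 ± 0.26 in WT. Avpr1a, the vasopressin receptor of hepatocytes, went the other way and was 2.01-fold lower, at 7.33 ± 0.45 in Ppara KO against 8.34 ± 0.24 in WT. Ces3a, Pon1 and the P450 gene Cyp2c29, the brightest uncalled genes of the list, did not pass.

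Periportal genes changed as well. Of 28 measured, 6 rose, 3 fell and 19 were not called, and their median difference was -0.015. Their share called was 32.1%, against 37.1% of the other pericentral genes and 10.2% of all genes. Their mean level, 10.23 in Ppara KO and 10.22 in WT, was also far above the all-gene median of 4.57. Etnppl, an enzyme of phosphoethanolamine breakdown, was 2.03-fold higher, Hsd17b6, a steroid dehydrogenase, 2.21-fold higher and Slc7a2, a carrier of cationic amino acids, 1.64-fold higher, while Gldc, a subunit of the glycine cleavage system, was 1.79-fold lower (limma adjusted p from 2.28e-05 to 0.00101). Asl, argininosuccinate lyase of the urea cycle, rose by 0.29 (SE 0.076, adjusted p = 0.0229), a call that ended without WT 1 (0.28, adjusted p = 0.0511) or Ppara KO 2 (0.28, adjusted p = 0.0507). Whether the 2 zones differ in their change was not tested. Leaving out 1 animal in turn gave 4 to 6 rises and 1 to 4 falls. Tat, Hpd and Cps1, the brightest uncalled periportal genes, did not pass.

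**Figure D3:**
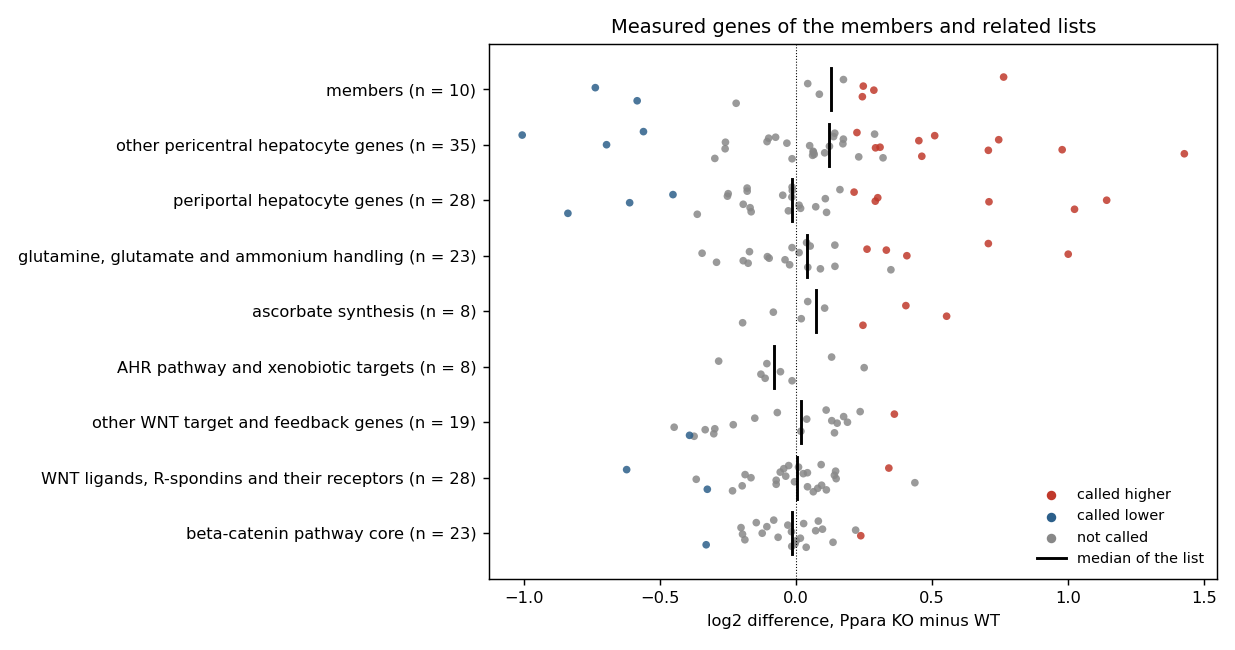
Each point is 1 measured gene of the members or of a related list, placed at its log2 difference, Ppara KO minus WT, and coloured by the call; black strokes mark the median of each list. The members and the other pericentral genes have medians of 0.13 and 0.12, and the medians of the 3 WNT lists lie between -0.016 and 0.018.

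Several other measures moved with genotype in the same livers. The circadian clock stood at different states: 10 of 10 measured clock genes of the E-box side rose, with a mean level per animal of 7.23 to 7.93 in Ppara KO against 5.53 to 5.88 in WT, and 4 of 4 genes of the BMAL1 side fell, with 5.82 to 6.71 in Ppara KO against 8.31 to 8.48 in WT. No animal overlapped, so for the members genotype and clock state cannot be told apart. Of 12 endothelial and central vein markers 0 rose and 1 fell, the receptor gene Kit (-0.55 ± 0.097, limma adjusted p = 0.00195). By limma 5 of the 12 had an unadjusted p under 0.05, and their mean level was 6.87 to 7.13 in Ppara KO and 6.91 to 7.14 in WT. Of 8 Kupffer cell markers 1 rose and 0 fell (7.59 to 8.33 in Ppara KO, 7.30 to 7.71 in WT), and 0 were called by limma without any 1 of WT 2, 3, 4 and 6 and Ppara KO 1 and 6. Of 10 stellate cell markers 0 rose and 0 fell with 4 at an unadjusted p under 0.05 by limma (7.0 to 7.20 in Ppara KO, 7.04 to 7.49 in WT), and 0 to 1 were called with 1 animal left out. Of 5 bile duct markers 0 rose and 2 fell (4.02 to 4.45 in Ppara KO, 4.16 to 4.46 in WT), with 0 to 2 called by limma with 1 animal left out and 0 without WT 2, WT 6 or Ppara KO 2. Of 9 lymphocyte and neutrophil markers 1 rose and 0 fell (4.01 to 4.49 in Ppara KO, 4.06 to 4.30 in WT). The part of these cells in the members' differences was not tested.

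Within the WT group, a pair of marker lists set some animals apart, and the members were therefore fitted without them. Of 8 adipocyte markers 2 fell and 0 rose (1 to 5 fell with 1 animal left out), with a mean level of 5.24 to 5.46 in Ppara KO and 5.38 to 6.94 in WT, where animals 1, 3 and 5 were at 6.21, 6.89 and 6.94 and animals 2, 4 and 6 at 5.46, 5.38 and 5.75. Of 7 proliferation markers 5 fell and 0 rose, with 3.99 to 4.37 in Ppara KO and 4.62 to 5.69 in WT, where animals 1, 2 and 3 were at 5.26, 5.69 and 5.65 and animals 4, 5 and 6 at 4.72, 4.69 and 4.62. No animal overlapped in these proliferation markers, so for the members genotype and proliferation level cannot be told apart. Leaving out WT 1, 2 and 3 does not change that, since WT 4, 5 and 6 also lay above all Ppara KO animals. Without WT 1, 3 and 5, and again without WT 1, 2 and 3, 3 of the 10 members were called, Slc1a2 (0.68 and 0.74) higher and Slc1a4 (-0.77 and -0.84) and Lgr5 (-0.70 and -0.73) lower. The 3 other calls ended at differences near those of all 12 arrays: Cyp2e1 had 0.24 and 0.23 (adjusted p = 0.102 and 0.119), Cyp1a2 0.27 and 0.26 (adjusted p = 0.0944 and 0.112), and Lect2 0.23 and 0.22 (adjusted p = 0.175 and 0.196). These fits hold 3 WT animals and called 1008 and 882 of all genes, against 2268 with all arrays.

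Between animals of the same genotype the members varied together only in part. With the mean of each genotype removed, Pearson's r over the 12 arrays was positive in 40 of the 45 pairs of members, with a median of 0.21. These values describe 12 animals whose arrays share 1 normalization, and carry no test. The highest values were those of Slc1a4 with Rgn (0.78), Cyp2e1 with Rhbg (0.77), Slc1a4 with Lgr5 (0.68), Slc1a2 with Axin2 (0.66) and Lgr5 with Lect2 (0.65). Split by genotype, Slc1a4 with Rgn had 0.88 in Ppara KO and 0.50 in WT, and Cyp2e1 with Rhbg 0.74 and 0.90. Lgr5 with Lect2 had 0.96 in Ppara KO and 0.44 in WT, while Slc1a2 with Axin2 had only 0.16 in Ppara KO and 0.75 in WT. Slc1a4 and Lgr5, the 2 genes that fell, also varied together within genotypes, in Ppara KO (r = 0.54) and in WT (r = 0.92). The lowest value was that of Cyp1a2 with Lect2 (-0.44), 2 genes that both rose, with -0.077 in Ppara KO and -0.84 in WT. Slc1a2 and Slc1a4 had 0.22. Glul had its highest value with Slc1a2 (0.48), but the sign differed by genotype, with -0.34 in Ppara KO and 0.60 in WT.

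**Figure D4:**
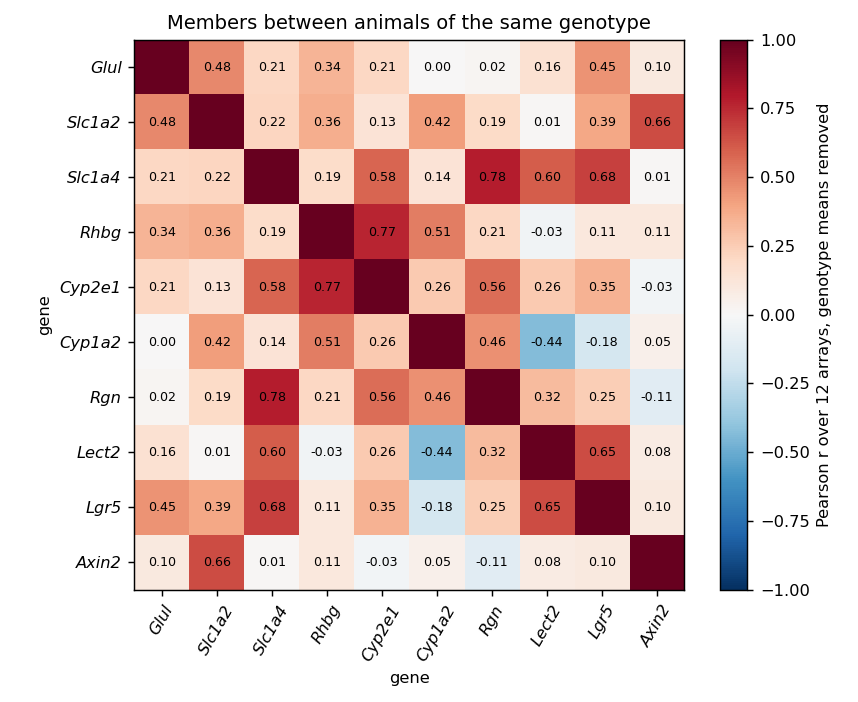
Cells give Pearson's r between 2 members over the 12 arrays with genotype means removed, from blue at -1 to red at 1. Slc1a4 has values of 0.58 to 0.78 with Cyp2e1, Lect2, Lgr5 and Rgn, and Cyp1a2 with Lect2 has the lowest value, -0.44.

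Among 10315 genes at or above the median level, those with the most similar pattern over animals of the same genotype were, for Slc1a2, Zdhhc7 (r = 0.95), Ttll4 (0.88) and Tgm1 (0.86). For Slc1a4 they were Anks4b (0.94), Zfp322a (0.93) and Mlx (0.91), and for Lgr5 Dennd11 (0.93), Zfp292 (0.92) and Fam214a (0.92). For Glul they were Oaz1 (0.91), Tssk5 (0.87) and Cpd (0.87), for Cyp2e1 Rars2 (0.90), Stam (0.88) and Ifnar2 (0.87), and for Cyp1a2 Zfp326 (0.92), Slc27a5 (0.91) and Rps4x (0.88). With 12 animals and this many genes searched, these are the highest of many values and are given as a description only. For Glul, r with Tssk5 and Cpd was 0.97 in WT but 0.23 and -0.26 in Ppara KO, while Oaz1 had 0.92 in WT and 0.87 in Ppara KO. The nearest genes of Lect2 (Pacsin2, 0.91), Axin2 (Thtpa, 0.85), Rgn (Sdad1, 0.96) and Rhbg (Prkab1, 0.91) were likewise not among the members. Of the 30 genes found in this way for the 10 members, 3 were called. The share of all genes, 10.2%, includes the dimmer genes that were not searched and is no matched background.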

How the data were processed

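Total RNA of 12 mouse livers was read on Affymetrix MoGene 2.0 ST arrays, 1 array per animal. RMA and Partek are named in the submitters' processing notes, without versions, and the authors deposited log2 values. The table held 41345 transcript clusters, with array medians of 4.13 to 4.17. Of these, 23521 had 1 gene symbol in the platform annotation, 1814 several and 16010 none, and only the first were tested, with the brightest cluster of each gene, as 22180 genes. Precision is limited by the 6 arrays per genotype, with a median SE of 0.093 per difference. RMA evens out the arrays, which hides a shift common to most genes.

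Genotypes were compared over all genes with limma 3.58.1 in R 4.3.3 (lmFit and eBayes, 2-sided, no covariate), with Benjamini-Hochberg adjustment over 22180 genes, and differences are Ppara KO minus WT in log2 units. The method was tested on simulated data. The members and the gene lists were chosen with earlier results of these data known, so no p-value is adjusted over a list alone. The share called among all genes is not matched to the level of any list. Genes named from a list come from its called genes with the smallest adjusted p, up to 5, and its brightest uncalled genes, up to 3. Znrf3, Nkd1, Cyp1a1, Kit, Wnt2, Wnt9b and Rspo3 were named for their function after their values were seen. For likeness, the 3 genes with the highest r were taken per member. Animals that share a number did not deviate together (r from -0.047 to 0.043), so the numbers do not pair them. Alternatives covered the variance prior, array weights, normalization, dim genes, clusters, thresholds, the replicate number as a block and animals left out.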

Additional observations from a re-analysis of the deposited data

Results flagged for a closer look

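No member had an animal that stood apart from the other 5 of its genotype by Dixon's criterion (the gap to the nearest animal over the range of the group, against the 95% critical value). Among 96 groups of 6 animals, those of the members, of Cyp2c29 and of the other genes given with values of their own, 3 did, where chance gives about 1 in 20. The genes named only as not called or for their likeness to a member were not tested, apart from Cyp2c29. WT animal 2 was highest for Bcl9l, at 7.21 with the next animal at 7.10. WT animal 6 was lowest for Ugdh, at 9.03 with the next at 9.23. WT animal 1 was lowest for Gulo, at 10.76 with the next at 10.96.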

How the results depend on the processing

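With 1 animal left out in turn, each of the 10 members kept its direction and its call in all 12 fits, while 1817 to 2130 of all genes were called. The number of members called was 2 with a change of at least 1.5-fold required (508 of all genes) and 2 by limma's treat against a 1.2-fold change (329 of all genes), Slc1a2 and Slc1a4 both times. It was 3 without WT 1, 3 and 5 (1008 of all genes) and 3 without WT 1, 2 and 3 (882), fits with fewer samples. An adjusted p under 0.01 left 4 members and 1070 genes. An intensity trend gave 7 members (2688 of all genes), Glul being added. Genes at or above the median level, tested alone, gave the same 7 members, with 2802 genes called. With the replicate number as a block, 4 members and 1672 genes were called: the calls of Cyp2e1 (adjusted p = 0.0502) and Cyp1a2 (adjusted p = 0.0618) ended, periportal calls fell to 5, and no animal of Ppara KO correlated best with its own number among WT. Some differences changed sign. The second cluster of Axin2 gave 0.015, against -0.22 for the brighter one, and a cluster that Rhbg shares with Tsacc gave -0.0069. Ppara ran from -0.022 to 0.072, Wnt9b from -0.039 to 0.11 and Ctnnb1 from -0.041 to 0.0073 with 1 animal left out. Wnt9b was at -0.043 without WT 1, 3 and 5 and at -0.027 without WT 1, 2 and 3, where Ctnnb1 was at 0.031. The cause was not tested. Centring each array on its median gave 875 rises and 1375 falls over all genes, against 989 and 1279.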
